A study of Mus musculus with 6 samples.

Results

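Isolated H3K9me3 regions of wild-type mouse thymocytes are described here: stretches of at least 1 kb that stood alone on the autosomes, together with what the knockout of KAP1 left of them. The regions were chosen by their width and spacing in the wild-type list alone. A region was kept when it lay on chromosomes 1 to 19, was 1000 bp or wider, and had no other wild-type region within 100 kb of either edge. Of the 3748 wild-type regions, 3423 were autosomal and 1100 of these were isolated. Of the isolated regions, 238 were 1 kb or wider and 862 were narrower. The other 2323 autosomal regions had a neighbour at 100 kb or less and are called clustered below.

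Trimethylation of lysine 9 on histone H3 (H3K9me3) marks silent chromatin. KAP1, encoded by Trim28, is brought to DNA by KRAB zinc finger proteins, each of which reads its own DNA sequence, and it recruits the methyltransferase SETDB1, which places this mark. Many of its targets are endogenous retroviruses, the remains of viral genomes scattered through mouse chromosomes, while zinc finger gene clusters and satellite DNA carry the mark over longer stretches. A full-length endogenous retrovirus typically measures 5 to 8 kb, and most other retroviral remains are shorter pieces such as solitary long terminal repeats.

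Chromatin came from total thymocytes, labelled as T cell progenitors, of C57BL/6 / sv129sv background. One genotype was wild type and the other a T cell-specific Kap1 knockout, and the labels name no Cre driver, age or number of animals. Total thymocytes also include cells that are not of the T lineage, and the labels do not say how complete the deletion was. Each genotype had 1 H3K9me3 library, precipitated with a Diagenode antibody, and 1 list of enriched regions on mm9. The lists hold 3748 wild-type and 605 knockout regions by position only, with no read counts, so the depth is unknown, no value has a replicate error, and a region missing from the knockout list may still carry some of the mark. The 2 KAP1 and 2 input libraries were not analysed here. No mm9 annotation or sequence was used, so regions are named by position and which gene, repeat or retrovirus lies under them was not analysed here.

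Most isolated regions had no counterpart in the knockout. Any knockout region that shared 1 base or more with a wild-type region counted as its partner. Of the 238 isolated regions, 34 had a partner, or 14.3% (Wilson 95% interval 10.4 to 19.3%, counting error only), and 204 had none. Among all autosomal wild-type regions, which include those below 1 kb, 14.6% had a partner. Among autosomal regions of 1 kb or more, the isolated ones included, the share was 21.1%. By length, the 238 regions covered 566 kb in wild type, of which 174 kb, or 30.7%, lay in knockout regions. The 2 widest regions made up 79.5 kb of that length, and without them the share of bases covered in the knockout was 19.6%.

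Most partners covered the larger part of the wild-type region. At least 50% of the wild-type width was covered in 28 of the 34 regions with a partner. Counted that way, 11.8% of the isolated regions were retained, against 10.8% of all autosomal regions of any width. With a reciprocal overlap of 50% the count was again 28 (11.8%), against 8.41% of all autosomal regions of any width. Letting a knockout region count at a gap of up to 10 kb added no isolated region (14.3%), while the share over all autosomal regions was then 21.8%. The rule nearly fixes this contrast. Isolated regions had no wild-type neighbour within 100 kb, and few knockout regions lay outside wild-type regions, whereas a clustered region can be credited with a neighbour's partner.

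Isolated regions were mostly narrow. The median width was 1521 bp, with quartiles of 1213 and 2099 bp, and 175 regions (73.5%) were 1 to 2 kb wide. Another 28 measured 2 to 3 kb and 19 measured 3 to 5 kb. Widths of 5 to 8 kb, the size of a full-length retrovirus, were found in 9 regions, or 3.78% (Wilson 95% interval 2.00 to 7.03%). Another 3 fell between 8 and 10 kb and 4 reached 10 kb. In steps of 500 bp the counts fell from 116 at 1000 to 1500 bp to 18 at 2000 to 2500 bp and 3 at 3500 to 4000 bp. Then 5 regions lay at 4000 to 4500 bp and 5 at 5500 to 6000 bp, numbers too small to call a second peak.

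**Figure D1:**
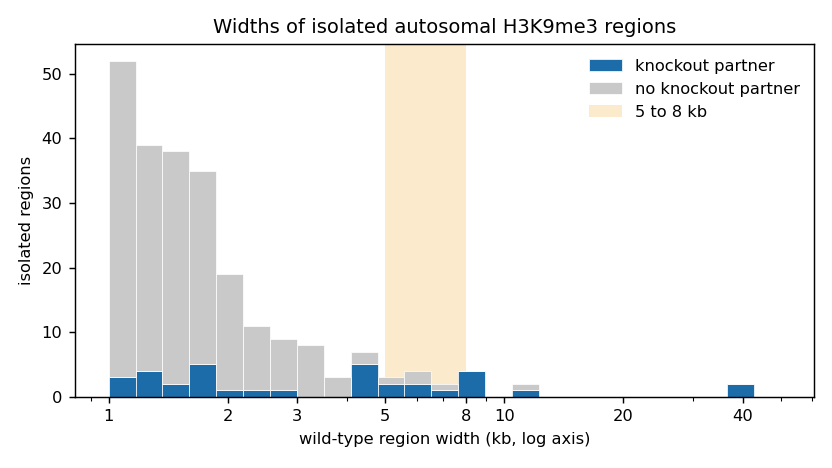
Width of the 238 isolated autosomal wild-type regions in kb (log axis) against their number, stacked by whether they had a knockout partner; the shaded band spans 5 to 8 kb. Most regions lie at 1 to 2 kb, where few have a partner, and the 2 widest lie near 40 kb.

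Retention was much higher among wide isolated regions than among narrow ones. A partner was present for 15 of 175 regions of 1 to 2 kb (8.57%, Wilson 5.26 to 13.7%) and for 2 of 28 regions of 2 to 3 kb (7.14%, 1.98 to 22.6%). It was present for 6 of 19 regions of 3 to 5 kb (31.6%, 15.4 to 54.0%) and for 5 of 9 regions of 5 to 8 kb (55.6%, 26.7 to 81.1%). All 3 regions of 8 to 10 kb and 3 of the 4 regions of 10 kb or more had one. Divided at 3 kb, a class edge picked after the shares were seen, 17 of 203 narrower regions were retained (8.37%) and 17 of 35 wider ones (48.6%), a difference of 40.2 percentage points (Newcombe 95% interval 23.9 to 56.4, counting error only). Within the class of 3 to 5 kb the kept regions all exceeded 4 kb: 0 of 11 regions of 3000 to 4000 bp had a partner (Wilson upper limit 25.9%), against 4 of 5 at 4000 to 4500 bp. From 4 kb up, 17 of 24 were kept (70.8%, 50.8 to 85.1%), and below that 17 of 214 (7.94%, 5.02 to 12.4%). This boundary was picked from these same shares, so the intervals do not allow for the choice. Among clustered regions of 1 kb or more the shares were 46.1% from 4 kb up and 9.96% below it. With 1 library per genotype no test between genotypes was possible.

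A wide region is touched more easily than a narrow one, and the part of this in the trend was not tested. The share of bases covered in the knockout, which comes from the same 34 regions, also differed by width. Knockout regions covered 6.29% of the bases of the isolated regions of 1 to 2 kb and 4.58% of those of 2 to 3 kb. The covered share was 29.8% at 3 to 5 kb, 45.4% at 5 to 8 kb, 71.6% at 8 to 10 kb and 88.2% at 10 kb or more. The last 2 of these classes held only 3 and 4 regions. At 10 kb or more, the 2 widest regions made up 79.5 of the 102 kb, so that share rests mainly on them. They were covered at 97.3% and 99.98%, and the other regions of that class at 97.6% and 0%. The bases covered at 3 to 5 kb all lay in regions wider than 4 kb. Whether wide regions also carried a stronger signal, and so passed the threshold of the region calling more easily in the knockout, was not tested, since the lists give no signal.

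**Figure D2:**
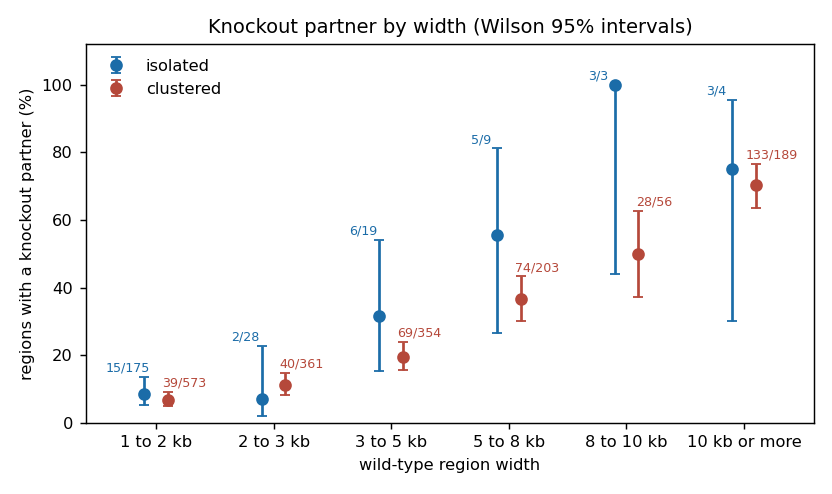
Retained regions, as a share of each set (%), by width class for isolated (blue) and clustered (red) autosomal regions; points are shares, bars Wilson 95% intervals, and labels the regions with a partner over all regions. Clustered shares rise with each class, from 6.81% at 1 to 2 kb to 70.4% at 10 kb or more. Isolated shares do not rise at every step. They were 8.57% at 1 to 2 kb, 7.14% at 2 to 3 kb, 100% (3 of 3) at 8 to 10 kb and 75% (3 of 4) at 10 kb or more. The intervals of isolated and clustered regions overlap in every class.

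The 9 regions of 5 to 8 kb were split between kept and lost. The widest kept one, chr7:111917515-111925266, was 7752 bp in wild type against 7225 bp in the knockout, where it lay shifted by 1658 bp at its start and 1131 bp at its end, so that 78.6% of it was covered. The region chr16:59243453-59249997 measured 6545 bp and its partner 4432 bp, the missing part lying almost wholly at the end, whose position changed by -2027 bp. The region chr7:36351210-36357108 also lost its end: 5899 bp in wild type against 4379 bp in the knockout, whose start changed by -465 bp and whose end by -1985 bp. These 3 regions were kept with altered edges.

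The other 2 kept regions of this size were nearly identical in both lists. The region chr12:17804091-17809899 went from 5809 bp in wild type to 5593 bp in the knockout, with 96.3% of its bases covered. The region chr2:98502324-98507707 went from 5384 to 5304 bp, with starts 16 bp and ends 96 bp apart. It is the nearest neighbour, at 325 kb, of another kept region, chr2:98169509-98177761. Whether repeated sequence lies under chr2:98502324-98507707, or whether reads of the input libraries also pile up there, was not analysed here.

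The 4 lost regions of 5 to 8 kb overlapped the kept ones in width. They were chr6:68193191-68200322 (7132 bp), chr7:137735243-137741133 (5891 bp), chr12:23466578-23472357 (5780 bp) and chr7:126874226-126879795 (5570 bp). The nearest knockout region lay 553 kb from the first, 2267 kb from the second, 121 kb from the third and 976 kb from the fourth. Width alone therefore did not separate kept from lost regions within 5 to 8 kb. The Wilson interval of the share, 26.7 to 81.1%, is wide at 9 regions. When wild-type regions up to 10 kb apart were first joined into 1, the share was 36.7% of 30 regions.

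Of the 7 isolated regions wider than this, 6 were kept. The widest, chr3:25415396-25456381, measured 40986 bp, its partner 39894 bp, with its start 1007 bp further in. The region chr9:2999950-3038465 measured 38516 bp and 38582 bp, with starts 6 bp and ends 72 bp apart. It is the first region on chromosome 9 and has the lowest start of any autosomal wild-type region. Reference mouse chromosomes begin beside unresolved satellite DNA of the centromere, and whether satellite or other repeated sequence lies under this region was not analysed here.

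The other wide regions were also close in width in both lists, with a single exception. The region chr8:56196915-56209102 went from 12188 to 11893 bp, and lay 1.75 Mb from its nearest wild-type neighbour. The region chr10:43951913-43960762 went from 8850 to 7636 bp and chr2:27350770-27359036 from 8267 to 7845 bp. The exception was chr2:98169509-98177761, 8253 bp in wild type, of which 2687 bp at the far end were covered by a 2905 bp knockout region that began 5566 bp further in. The lost region in this group, chr5:26585271-26595938, was 10668 bp wide, with the nearest knockout region 140 kb away.

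The 6 kept regions of 3 to 5 kb ranged from little change to larger cuts. Those outside the 10 widest were picked after their values were seen, as were the narrower regions below. Little changed at chr18:7319665-7323791 (4127 bp, partner 4007 bp) and at chr14:45289399-45293679 (4281 bp, partner 4386 bp). The region chr14:51339710-51344370 went from 4661 to 4120 bp and chr9:115058511-115062899 from 4389 to 3574 bp. Larger cuts were seen at chr1:192123489-192128343, from 4855 to 3132 bp, and at chr11:88828090-88832284, from 4195 to 2663 bp.

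The 17 kept regions below 3 kb ranged from full overlap to short remnants. The closest match was chr4:118220108-118221276, 1169 bp against 1173 bp in the knockout, with starts 4 bp and ends 8 bp apart. At chr7:31281929-31284580 the widths were 2652 and 2641 bp. The partner was wider than the wild-type region at chr7:89919485-89920569 (1085 bp, partner 1553 bp), chr9:42772648-42774367 (1720 bp, partner 1956 bp) and chr18:40466856-40468114 (1259 bp, partner 1423 bp). These 3 had the widest partners relative to their own width, by 1.43, 1.14 and 1.13 times.

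Short remnants were found at the narrow end. The narrowest relative partner was at chr10:52247327-52249627, where the wild-type region measured 2301 bp and its partner 597 bp, or 0.259 times that, with 558 bp shared. This region was also the most isolated of all 238, with its nearest wild-type neighbour 4.91 Mb away. The next were chr1:56838876-56840101, with 349 bp for 1226 bp, and chr14:9119095-9120294, with 379 bp for 1200 bp. In these 3 the knockout kept the start, within 52 bp, and lost the end. Among the 3 narrowest kept regions, chr1:196695790-196696847 (1058 bp) met its 879 bp partner over only 24.8% of its bases.

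Of the 34 pairs, 28 had the narrower and 6 the wider region in the knockout. Every isolated region with a partner had exactly 1, and each of these partners met no other wild-type region. The median width ratio of knockout to wild type was 0.909 (log2 ratio -0.14, 95% interval of the median -0.56 to -0.04 from the ranks). Ratios ran from 0.259 to 1.43, and 14 pairs differed by at most 10% of the wild-type width. The median distance was 132.5 bp between starts and 256.5 bp between ends, and both edges lay within 500 bp of each other in 16 pairs. In 18 pairs the knockout region lay wholly inside the wild-type region, in 16 it reached past 1 edge, and in 0 past both. The knockout reached past the start in 8 pairs and past the end in 8.

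Wide and narrow pairs had overlapping intervals of their medians, and 5 of the 6 pairs with the least coverage were narrow. The median ratio was 0.932 in the 17 pairs of 3 kb or more (log2 ratio -0.10, 95% interval -0.43 to -0.04) and 0.887 in the 17 pairs below 3 kb (log2 ratio -0.17, -0.74 to -0.01). Less than 50% of the wild-type bases were covered in 6 pairs, 5 of them below 3 kb, and the other was chr2:98169509-98177761. Over all 34 pairs the covered share had a median of 86.9% and ran from 24.3 to 99.98%.

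**Figure D3:**
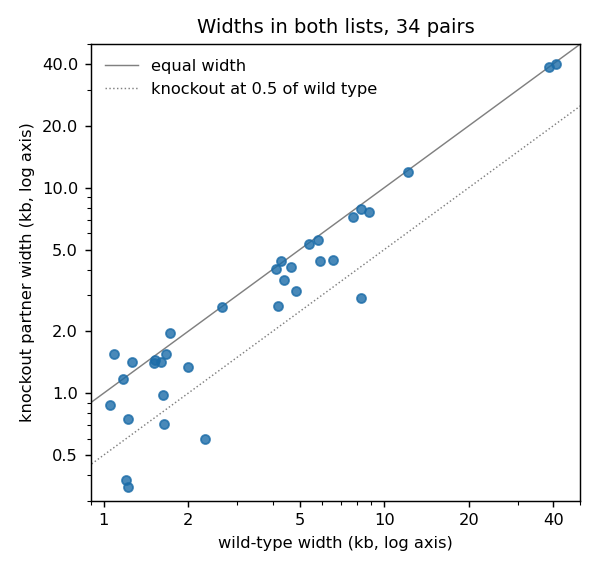
Width of the knockout partner against width of the isolated wild-type region for the 34 pairs (kb, both axes log); the solid line marks equal width and the dotted line 0.5 of the wild-type width. The 2 widest pairs sit on the line of equal width, and 5 pairs lie below the dotted line.

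The partners had no other knockout region within 100 kb in 34 of 34 cases, against 41.3% of all 487 autosomal knockout regions. The choice of isolated wild-type regions nearly fixes this, since only 52 autosomal knockout regions lay outside every wild-type region. Of the partners, 27 were 1 kb or wider and 7 were narrower.

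The 204 lost regions were narrow, and the nearest knockout region was mostly over 1 Mb away. Their median width was 1452.5 bp (quartiles 1189 and 1923 bp), and 160 of them, or 78.4%, measured under 2 kb. The 34 kept regions had a median of 3389.5 bp (quartiles 1548 and 5877 bp). The nearest knockout region lay a median of 3.70 Mb away from a lost region, with quartiles of 1.38 and 8.48 Mb. It lay over 1 Mb away in 160 cases, within 100 kb in 1 and within 10 kb in 0. The exception was chr5:104377676-104379653, 1978 bp wide, with a knockout region at 23.3 kb. The choice of isolated regions nearly fixes the counts within 100 kb and 10 kb. Only 52 of the 487 autosomal knockout regions lay outside every wild-type region. The larger distances also depend on how few knockout regions there were, and no other set was measured.

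Only 5 lost regions reached 5 kb, and they are described above. The 5 next in width were chr4:49329485-49334207 (4723 bp), chr12:5061928-5066263 (4336 bp), chr7:34814482-34818471 (3990 bp), chr7:6176709-6180665 (3957 bp) and chr5:32835478-32839103 (3626 bp). Of the 10 widest lost regions, 4 were on chromosome 7. That chromosome held 30 of the 238 isolated regions and 552 of the 3423 autosomal wild-type regions. The count of 4 is therefore not read as a trait of the lost regions. The region on chromosome 4 was 12.1 Mb from the nearest knockout region, and the one on chromosome 5 was 227 kb from it.

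Isolated regions were narrower than clustered ones, and as counted fewer of them were retained. Clustered autosomal regions of 1 kb or more numbered 1736, with a median width of 2757 bp (quartiles 1695 and 5101 bp), and 383 of them, or 22.1%, had a partner. The share was thus 7.78 percentage points lower among isolated regions (Newcombe 95% interval 2.42 to 12.1 points lower). With coverage of at least 50% of the wild-type width required, the difference was -3.67 points (-7.60 to 1.31), an interval that includes 0. Within width classes the sign was not kept. Below 3 kb the shares were 8.37% isolated and 8.46% clustered, a difference of -0.08 points (-3.73 to 4.82). At 3 kb or more they were 48.6% and 37.9%, a difference of 10.7 points (-5.28 to 26.9).

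Weighted to the widths of the isolated regions, in 6 classes, the clustered regions would have been retained at 11.1%. This is below the 14.3% observed for isolated ones but within its interval of 10.4 to 19.3%. At 5 to 8 kb the shares were 55.6% of 9 isolated and 36.5% of 203 clustered regions, a difference of 19.1 points (-10.6 to 45.4). In each of the 6 width classes the interval of the difference included 0. At 4 kb or more, a boundary picked from the isolated regions' own shares, 70.8% of 24 isolated and 46.1% of 581 clustered regions were kept, which is given as a description only. The width classes themselves differed: 5 to 8 kb held 11.7% of the clustered regions (10.3 to 13.3%) and 3.78% of the isolated ones (2.00 to 7.03%), and 10 kb or more held 10.9% and 1.68%.

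Where a partner existed, the median width ratio was higher in isolated than in clustered regions, with overlapping intervals, and the difference was not tested. Among 258 clustered autosomal regions of 1 kb or more that paired 1 to 1, the median width ratio was 0.823 (log2 ratio -0.28, 95% interval -0.39 to -0.19), against 0.909 in the 34 isolated pairs, and the intervals overlap. The sets are not alike, since 258 of the 383 clustered regions with a partner paired 1 to 1, and all 34 isolated ones did. Less than 50% of the wild-type bases were covered in 77 of the 258 clustered pairs and in 6 of the 34 isolated pairs. Both edges lay within 500 bp in 78 of the 258 clustered pairs and in 16 of the 34 isolated pairs. Clustered pairs were wider in wild type, with a median of 6390 bp against 3389.5 bp, so an equal tolerance is not an equal share of the width.

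Isolated regions below 1 kb were retained less often. Of these 862 regions, 51 had a partner, or 5.92% (Wilson 4.53 to 7.70%), which is 8.37 percentage points below the share at 1 kb or more (Newcombe 95% interval 4.10 to 13.6). Most of this gap came from regions of 3 kb or more: the regions of 1 to 2 kb exceeded the narrower ones by 2.65 points, with an interval of -1.10 to 7.93 that includes 0. On chromosomes X and Y, 7 regions would have met the same rule, and 2 of them had a partner.

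How far a region stood from its neighbours was not matched by a steady change in retention. The gap to the nearest wild-type region had a median of 381 kb over the 238 regions (quartiles 216 and 846 kb). The share with a partner was 13.2% at 100 to 250 kb (10 of 76), 16.2% at 250 to 500 kb (11 of 68) and 9.52% at 500 to 1000 kb (4 of 42). It was 16.1% at 1000 to 2000 kb (5 of 31) and 19.0% beyond that (4 of 21), and the Wilson intervals of these shares overlap. The median width was alike over these classes, from 1465 to 1663 bp. After the region on chromosome 10 named above, the most isolated were chr8:49839976-49841773 (1798 bp, gap 3.94 Mb) and chr14:28377825-28379606 (1782 bp, gap 3.91 Mb), both without a partner.

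**Figure D4:**
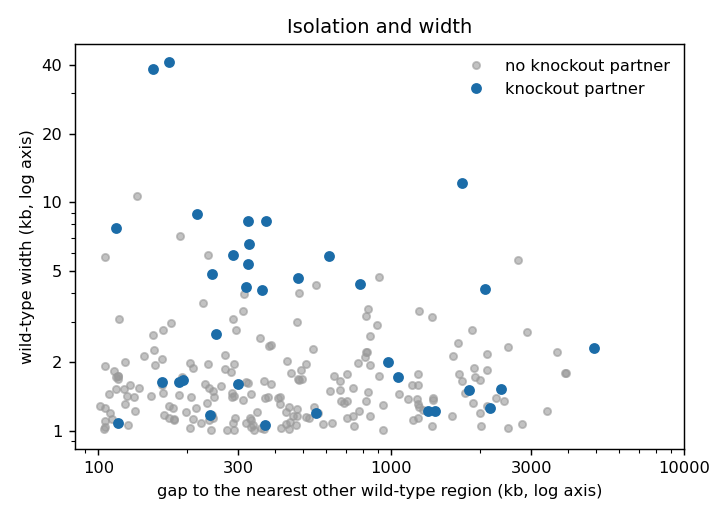
Gap to the nearest other wild-type region (kb, log axis) against wild-type width (kb, log axis) for the 238 isolated regions; blue points have a knockout partner and grey points have none. Blue points spread over the whole range of gaps and make up most of the points above 4 kb.

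Kept regions were scattered over the genome. Isolated regions were found on all 19 autosomes, from 4 on chromosome 19 to 32 on chromosome 1, with 30 on chromosome 7. Per 100 Mb between the first and last wild-type region of a chromosome, the number ran from 3.97 on chromosome 10 to 20.3 on chromosome 7, with a median of 8.40. A kept region was present on 17 autosomes, and no chromosome had more than 4. Chromosomes 13 and 19 had none, with 7 and 4 isolated regions, so their Wilson intervals reach 35.4 and 49.0%. On chromosome 1, 18.6% of all wild-type regions were isolated and of 1 kb or more, the highest share of any autosome, against 5.43% on chromosome 7 and 2.78% on chromosome 13.

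**Figure D5:**
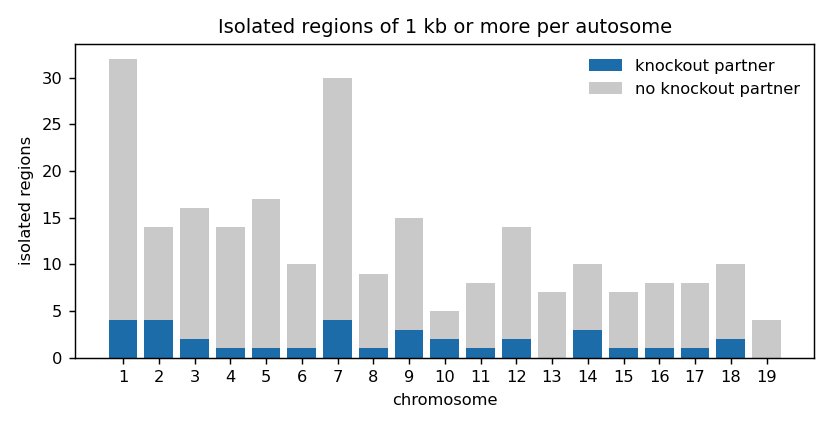
Number of isolated regions of 1 kb or more on each autosome, stacked by knockout partner (blue) or none (grey). Chromosomes 1 and 7 hold the most regions, 32 and 30, and the kept regions number at most 4 on any chromosome.

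The regions closest to the limits of the rule follow, as a description. Just inside the width limit were chr12:120500531-120501534 (1004 bp), chr4:128490089-128491093 (1005 bp) and chr1:125084856-125085861 (1006 bp). Just outside it were chr19:8096890-8097886 (997 bp), chr3:9450909-9451904 and chr4:100985863-100986858 (996 bp each). None of these 6 had a partner. Just inside the gap limit were chr14:6161252-6162540 (gap 101 kb), chr9:19567622-19568641 (104 kb) and chr11:35955350-35956383 (105 kb), all without a partner. Just outside it were chr5:147218202-147219452 (99.8 kb), chr12:20496564-20497787 (98.6 kb) and chr17:23668599-23673379 (98.0 kb). Of these 3, the last, which was 4781 bp wide, had a partner.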

How the data were processed

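The 2 H3K9me3 region lists, 1 library per genotype, were used. Reads were aligned with Bowtie to mm9, per the submitters' processing notes; the Bowtie version, the handling of reads that map to several places, the region caller and its threshold are not stated there. The deposited lists give positions only, with no score or count. Starts were read as counted from 0 and are printed counted from 1; width is end minus start. The regions, width classes and lists were chosen with earlier results of these data known. Shares carry Wilson and differences of shares Newcombe 95% intervals, which treat regions as independent and cover counting error only; medians carry rank intervals. Pairs are regions that overlap each other and nothing else. Most named regions follow a rule, and the others were picked after their values were seen. The rule took the 10 widest with and without a partner, all of 5 to 8 kb with one, the 3 narrowest with one, the 3 with relatively widest and narrowest partners, the 3 most isolated, and 3 on each side of each limit. Positions were not converted to the GRCm38 gene table, so no genes were assigned and no sequence was read. Functions were tested on 20 simulated lists. Python 3.11.15, pandas 2.3.3 and scipy 1.17.1 were used.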

Additional observations from a re-analysis of the deposited data

How the results depend on the processing

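The changes that leave out the 2 widest regions, judge isolation over both lists or weight by width were chosen after seeing the data. Of 51 values under changed settings, 43 stayed within the interval of the value reported, 6 moved and 2 reversed. A wide interval, such as 26.7 to 81.1% for the share at 5 to 8 kb, makes staying within it easy. The share of isolated regions with a partner, 14.3%, was 30.2% with a minimum width of 2 kb and otherwise ran from 11.8% (overlap of 50%) to 18.8% (joining of wild-type regions up to 10 kb apart); leaving out each autosome in turn gave 13.4 to 14.9%. The share at 5 to 8 kb, 55.6%, ran from 36.7% (joining) to 66.7% (gap limit of 200 kb, 6 regions), and from 50% to 62.5% with an autosome left out. The difference between isolated and clustered regions, -7.78 points, was -3.67 with 50% of the wild-type width covered. It was -0.27 if 50% of both regions had to overlap and -0.43 after joining. It was -18.5 if knockout regions up to 10 kb away were accepted. Isolated regions can hardly gain from that setting by their definition, while clustered ones can be credited with a neighbour's partner. The difference reversed to 0.58 (-9.70 to 13.0) with a minimum width of 2 kb. It reversed to 3.23 when clustered regions were weighted to the widths of the isolated ones. This weighting has no interval, and the cause of the difference was not tested. The share of 5 to 8 kb regions, 3.78%, was 9.40% after joining and 14.3% with a minimum width of 2 kb, which leaves fewer regions. The median log2 width ratio, -0.14, was -0.56 after joining, which equals the lower limit of its interval and was counted as within it. Depth limits every value and is unknown. No paired analysis was possible because there is 1 library per genotype.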

Other observations

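The same rule applied to the knockout list gave a different set of places. Of 487 autosomal knockout regions, 104 were 1 kb or wider with no other knockout region within 100 kb. Of these, 27 overlapped an isolated wild-type region of 1 kb or more and 2 an isolated narrower one, while 65 overlapped a wild-type region that had a neighbour within 100 kb, and 10 overlapped none. Most regions that stood alone in the knockout thus overlapped a wild-type region with a neighbour. Of all autosomal wild-type regions, 2323 of 3423 had such a neighbour, so the count is not read as a trait of these regions. Of all 487 autosomal knockout regions, 52 overlapped no wild-type region. The knockout list is also much shorter, with 605 regions against 3748.

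The 10 isolated knockout regions with no wild-type overlap measured 1011 to 4553 bp. The widest were chr1:103000321-103004873, 10.5 kb from the nearest wild-type region, and chr6:124829973-124834289, 4317 bp wide and 654 kb from one. The narrowest, chr5:104353339-104354349, lay 23.3 kb from the isolated wild-type region chr5:104377676-104379653.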
